A study of Mus musculus with 8 samples.

Results

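The 10 imprinted growth genes H19, Igf2, Meg3, Rian, Mirg, Dlk1, Cdkn1c, Grb10, Peg3 and Mest were examined in skeletal muscle of mice, 10 of the 55487 genes in the deposited values. They were taken as a fixed list of gene symbols, which the GENCODE M21 annotation of GRCm38 tied to 1 Ensembl identifier each, and all 10 were found. The list was selected on measured values of the same 8 libraries, by a choice whose threshold is not stated, so levels and spread below are a description of these genes and no independent support for any pattern in them. The 8 samples form 1 group: male C57BL/6J mice aged 10 weeks whose hindlimbs were cast for 8 days while K14Q MOTS-c was injected into the abdomen at 15 mg/kg/day, in 2 injections per day. K14Q MOTS-c is a variant of MOTS-c, a small peptide encoded in mitochondrial DNA. Every mouse was immobilized and every mouse received the variant peptide, so no comparison with untreated, uncast or wild-type MOTS-c animals was analysed here. The labels call the tissue vastus lateralis muscle, whereas the series' design text and the study's methods call it gastrocnemius. Both are muscles of fast fibres, and the 5 fast fibre markers (Ckm, Myh4, Acta1, Tnnt3 and Myh1) summed to 1560116 to 3175215 normalized counts per mouse and the 5 slow fibre markers to 6583 to 15651. These markers do not tell the muscles apart.

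Imprinted genes are transcribed mainly from the copy inherited from 1 parent, because the other copy carries a mark, usually DNA methylation, set in the germ line. Many of them act on growth before birth, and in skeletal muscle several are linked to muscle progenitors and are turned down after birth. H19, Meg3, Rian, Mirg, Cdkn1c and, outside the nervous system, Grb10 are known as maternally expressed genes, and Igf2, Dlk1, Peg3 and Mest as paternally expressed genes. All mice here were of 1 inbred strain, whose parental copies share a sequence, so the counts do not tell maternal from paternal transcripts. Bulk muscle RNA was measured, so fewer cells of a type and less RNA per cell cannot be told apart.

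Several of these genes carry microRNAs inside them, and the first sequences shown are those of the host gene with the highest level, H19. The hairpin of Mir675 lies wholly within an H19 exon, at chr7:142577064-142577147 on the minus strand (84 bases, RefSeq, GRCm38.p6), and is the stretch that the authors' counting treated as a gene of its own. Capitals mark its mature arms in the hairpin, and in each mature microRNA they mark the seed, bases 2 to 8, through which a microRNA pairs with its targets.
Mir675 hairpin: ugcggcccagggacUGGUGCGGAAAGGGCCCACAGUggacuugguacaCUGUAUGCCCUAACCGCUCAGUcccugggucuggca
mmu-miR-675-5p: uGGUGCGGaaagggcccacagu
mmu-miR-675-3p: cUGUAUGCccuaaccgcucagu
The microRNAs of the protein-coding hosts Igf2 (miR-483) and Mest (miR-335) are shown for comparison, since they lie in introns and their hairpins had almost no counts.
mmu-miR-483-5p: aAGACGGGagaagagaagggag
mmu-miR-483-3p: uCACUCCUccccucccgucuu
mmu-miR-335-5p: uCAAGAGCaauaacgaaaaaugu
mmu-miR-335-3p: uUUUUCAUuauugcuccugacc
No seed was shared among these 6 mature microRNAs.

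Levels are given as normalized counts, the read count of a gene divided by the size factor of its library, as the authors deposited them. The reads behind them could be recovered as whole numbers for 100% of the values, within a tolerance of 0.01 of a read, and the libraries held 23985356 to 33012497 counts. A minimum of 10 counts per library was met in all mice by 8 of the members and missed by Mirg and Dlk1. Errors are SDs over the 8 mice.

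The long noncoding RNA H19 stood far above the other members. H19 (ENSMUSG00000000031, chromosome 7, 142575529 to 142578143, minus strand) had 7182 normalized counts in its lowest mouse, 12147 at the median and 15288 in its highest, with a mean of 11980.4 ± 2811 (SD, n = 8). Mouse 5 was the lowest and mouse 2 the next, and mice 6 and 8 were the highest and nearly equal. Its 7832 to 15597 counts made up 0.0237% to 0.0528% of a library, and its mean ranked 218 among the 31136 genes with any count.

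Igf2 encodes a fetal growth factor that acts through the IGF1 receptor and shares enhancers with H19, its neighbour on chromosome 7 (142650766 to 142666816). Igf2 had 358 normalized counts in the lowest mouse, 438 at the median and 820.0 in the highest, with a mean of 498 ± 153 (SD, n = 8). Mice 6 and 1 stood above the rest, and the other 6 mice lay between 358 and 443. Per kilobase of exon, H19 exceeded Igf2 in every mouse, by 37.7-fold to 84.0-fold with a median of 55.8-fold. Cdkn1c, a cyclin-dependent kinase inhibitor farther along the same chromosome (143458339 to 143461050), had 250.4 normalized counts in the lowest mouse, 472 at the median and 571 in the highest (mean 440.0 ± 121, SD, n = 8). Mouse 5 was again the lowest, and mice 1 and 8 were the highest.

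The Dlk1-Dio3 region of chromosome 12 holds 4 of the genes. Meg3 (109541001 to 109571726), a long noncoding RNA made from the maternal copy, had 291 normalized counts in the lowest mouse, 383 at the median and 558 in the highest, with a mean of 383 ± 91.1 (SD, n = 8). Mouse 8 was the highest, and mice 3, 4 and 5 lay close together at the low end. Rian (109603940 to 109661716), the host of small nucleolar RNAs downstream of Meg3, ran from 150.6 through a median of 165 to 224 normalized counts (mean 172 ± 23.4, SD, n = 8). Mouse 1 stood apart at the top, and the others lay within 150.6 to 184. Mirg (109729764 to 109749460), the host of a microRNA cluster in the same region, had only 4 to 14 counts per library and a mean of 7.50 ± 2.39 normalized counts (SD, n = 8). Dlk1 (109452823 to 109463336), whose protein is a membrane-bound and secreted inhibitor of adipocyte differentiation, had 3 to 14 counts and a mean of 8.97 ± 4.24 normalized counts (SD, n = 8). Differences between mice in Mirg and Dlk1 were not detectable at this depth, as tested below.

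The remaining 3 genes lie alone among the members. Grb10 (chromosome 11, 11930508 to 12038683), an adaptor that damps insulin and IGF receptor signalling, had 1344 normalized counts in the lowest mouse, 1645 at the median and 2418 in the highest (mean 1707 ± 330.3, SD, n = 8). Mouse 5, the lowest for H19 and Cdkn1c, was the highest for Grb10. Peg3 (chromosome 7, 6703892 to 6730431), a zinc finger protein, ran from 790.4 in mouse 7 through a median of 1883 to 3425 in mouse 4 (mean 1992 ± 835, SD, n = 8). This 4.33-fold range was the widest among the 8 members that met the count minimum. Mest (chromosome 6, 30723547 to 30748465), a membrane protein of the hydrolase fold, was low, with 19.1 normalized counts in mouse 3, 30.0 at the median and 43.1 in mouse 6 (mean 30.6 ± 7.56, SD, n = 8).

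**Figure D1:**
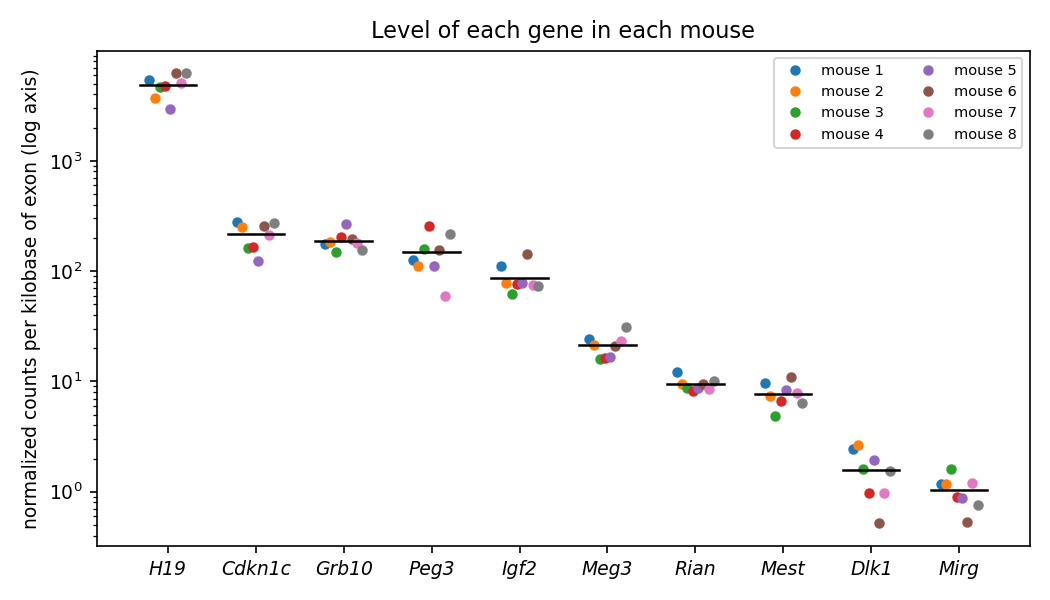
Normalized counts per kilobase of exon (log axis) for the 10 genes, in order of their mean, with 1 point per mouse and a black line at the mean of 8 mice. H19, with a mean of 4870 per kilobase, lies above every other gene in every mouse, and Dlk1 and Mirg, at 1.59 and 1.03, lie below the rest.

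Levels of different genes were compared per kilobase of exon, which removes the advantage of long transcripts. On this scale the order of the means was H19 (4870 ± 1143 normalized counts per kilobase, SD, n = 8), Cdkn1c (216 ± 59.4), Grb10 (188 ± 36.3), Peg3 (149.5 ± 62.7), Igf2 (87.0 ± 26.7), Meg3 (21.2 ± 5.04), Rian (9.45 ± 1.29), Mest (7.76 ± 1.92), Dlk1 (1.59 ± 0.75) and Mirg (1.03 ± 0.33). Of the 9 neighbouring pairs in this order, 4 were in the same order in all 8 mice with ranges that did not overlap: H19 above Cdkn1c, Igf2 above Meg3, Meg3 above Rian, and Mest above Dlk1. The other 5 neighbours (Cdkn1c and Grb10, Grb10 and Peg3, Peg3 and Igf2, Rian and Mest, Dlk1 and Mirg) differed in their means by less than the larger of their SDs. The long exon totals of Meg3 (18089 bases) and Rian (18234 bases) merge all annotated isoforms, so their values per kilobase are low if only short isoforms are made. Within the maternal noncoding RNAs of chromosome 12 the level per kilobase was highest for Meg3, then Rian, then Mirg, which is their order along the chromosome. Mirg had only 4 to 14 counts per library and its length also merges isoforms, so no gradient with position can be read from this.

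Whether mice differed by more than counting error was tested for each gene by a chi-square test of its recovered counts against Poisson counts, over the 18166 genes with a mean of at least 5 counts, with Benjamini-Hochberg adjustment over all of them. The test called 13140 genes, 72.3% of those tested, and 7 of the 10 members: H19, Igf2, Meg3, Rian, Cdkn1c, Grb10 and Peg3. With this minimum mean, the share of members called was near that of all genes. With no filter on low counts, the same 7 members were called but only 42.3% of all genes. Rian was the least clear of the 7 (adjusted p = 0.0054), and it was not called without mouse 1. Mest (adjusted p = 0.071), Dlk1 (adjusted p = 0.082) and Mirg (adjusted p = 0.61) were not called with all 8 mice. Mest was called when mouse 2, mouse 5 or mouse 7 was left out.

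The spread that counting error left over was expressed as a coefficient of variation, the SD between mice as a percent of the mean after the Poisson part was taken out. It was 41.9% for Peg3, 33.1% for Dlk1, 30.3% for Igf2, 27.1% for Cdkn1c, 23.4% for H19, 23.2% for Meg3, 19.2% for Grb10, 16.6% for Mest, 11.2% for Rian and 0 for Mirg. The median over the 10 members was 23.3%, beside 13.8% over all 18166 genes tested, whose middle part, from the lower to the upper quartile, ran from 8.58% to 21.8%. Of the members, 8 lay above the median of all genes. For Dlk1 this estimate rests on 3 to 14 counts per library.

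**Figure D2:**
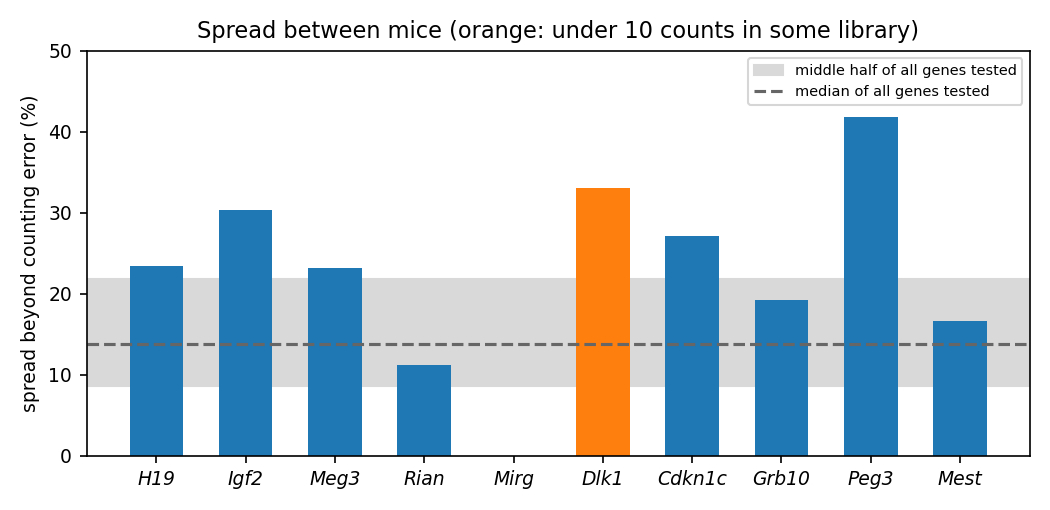
Spread between the 8 mice beyond counting error, as a percent of the mean, for each gene (bars, orange for Mirg and Dlk1, which missed the count minimum), with the median (dashed line, 13.8%) and quartiles (grey band, 8.58% to 21.8%) of all genes tested. Peg3 has the tallest bar, at 41.9%, and Mirg is at 0.

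The mice did not order the members alike. On the log2(normalized count + 1) scale, mouse 5 deviated from the gene mean by -0.70 for H19 and -0.76 for Cdkn1c but by 0.52 for Grb10. Mouse 6 deviated by 0.77 for Igf2, 0.51 for Mest and 0.39 for H19. Mouse 1 was above the mean for 8 of the 10 genes, all but Grb10 and Peg3. For Peg3 the extremes were mouse 4, at 0.90, and mouse 7, at -1.21. Mouse 7 was at neither end for any other member, and mouse 4 was also the lowest for Rian.

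**Figure D3:**
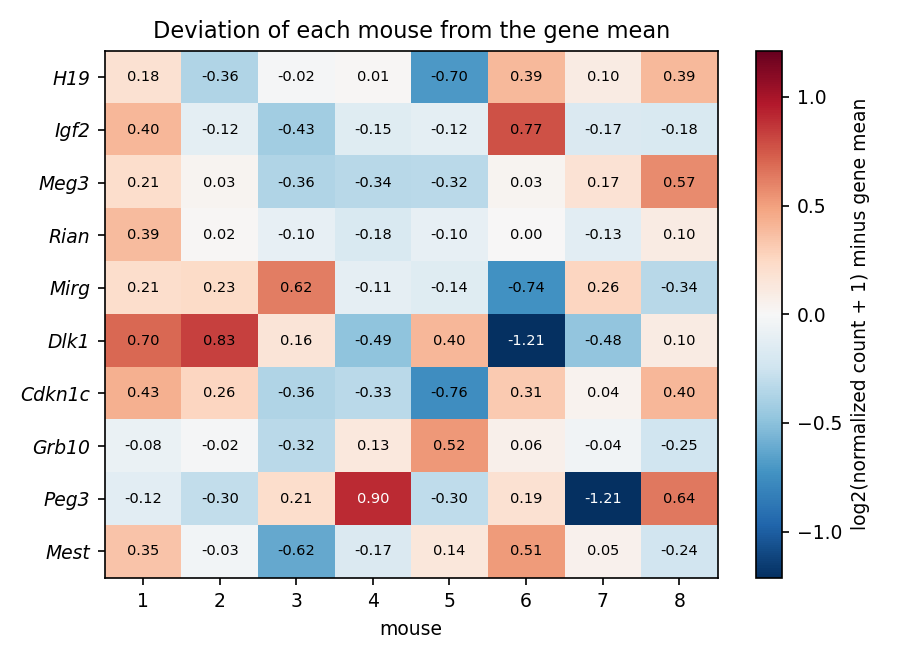
Deviation of each mouse (columns) from the mean of each gene (rows) in log2(normalized count + 1), red above and blue below. Mouse 6 is high for Igf2 (0.77) and Mest (0.51), mouse 5 is low for H19 (-0.70) and Cdkn1c (-0.76), and Peg3 spans -1.21 in mouse 7 to 0.90 in mouse 4.

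Relations between members across mice were measured over the 28 pairs of the 8 genes that met the count minimum. Pearson's r of log2(normalized count + 1) was positive for 20 pairs. With Benjamini-Hochberg adjustment of the two-sided exact permutation p over the 28 pairs, 1 pair passed 0.05. The pair was Igf2 and Mest, both known as paternally expressed, on chromosomes 7 and 6. Their r was 0.88 (exact permutation p = 0.0015, adjusted 0.042), Spearman's rho reached 0.88 (p = 0.0072, adjusted 0.20, also exact), while dropping the 2 mice farthest out in the first gene left r at 0.90. Both genes were lowest in mouse 3 and highest in mouse 6, with mouse 1 next. The relation stayed positive when any mouse was left out, with r from 0.85 to 0.92, but its adjusted exact permutation p was above 0.05 without mouse 1, 2, 3, 4, 6 or 8 (0.056 to 0.37). It was at 0.05 without mouse 5 and 0.011 without mouse 7. With library totals as the scaling r was 0.87 and the adjusted exact permutation p was 0.16. Mest had 23 to 44 counts per library. Its spread between mice was not called beyond counting error (chi-square test, adjusted p = 0.071). The Igf2 counts cannot be told apart from those of the overlapping gene Gm49394, as described below. No member passed against library size or the part of the counts held by the top 10 genes (16 relations, all adjusted exact permutation p of 0.34 or more). With the latter, r was 0.68 for Cdkn1c, 0.66 for Meg3, 0.64 for Rian, 0.63 for Mest and 0.44 for Igf2. It was 0.11 for H19, -0.015 for Grb10 and -0.60 for Peg3. The part of this share in the relations between members, here and below, was not tested.

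The same-region pairs among the genes that met the count minimum, H19 with Igf2 and Meg3 with Rian, did not pass the test. Mirg and Dlk1, of the same region as Meg3, missed that minimum and were left out here. Peg3 with Zim1, a neighbour outside the list, passed in a later family of 5 pairs given below. For H19 and Igf2, which share enhancers, r was 0.41 (exact permutation p = 0.30, adjusted 0.63), Spearman's rho reached 0.071 (p = 0.88, also exact), while dropping the 2 mice farthest out in the first gene left r at 0.61. Without mouse 6, the highest for Igf2, r was 0.14. For Meg3 and Rian r was 0.60 (exact permutation p = 0.11, adjusted 0.48), Spearman's rho reached 0.69 (p = 0.069, also exact), while dropping the 2 mice farthest out in the first gene left r at 0.63. With library totals as the scaling r was 0.32. Cdkn1c had positive values with H19, Meg3 and Rian and a negative value with Grb10. With Meg3 r was 0.83 (exact permutation p = 0.012, adjusted 0.17), Spearman's rho reached 0.81 (p = 0.022, also exact), while dropping the 2 mice farthest out in Meg3 left r at 0.86. With H19 r was 0.71 (exact permutation p = 0.046, adjusted 0.33), Spearman's rho reached 0.79 (p = 0.028, also exact), while dropping the 2 mice farthest out in H19 left r at 0.86. Without mouse 5, the lowest for both genes, r was 0.37, and the other mice left out singly gave up to 0.90. With Rian r was 0.69 (exact permutation p = 0.048, adjusted 0.33), Spearman's rho reached 0.76 (p = 0.037, also exact), while dropping the 2 mice farthest out in Rian left r at 0.65. Under scaling by library totals this r was 0.51. With Grb10, also known as maternally expressed, r was -0.56 (exact permutation p = 0.15, adjusted 0.51), Spearman's rho was -0.38 (p = 0.36, also exact), and r was -0.68 once the 2 mice farthest out in Cdkn1c were dropped. Grb10 also had a negative value with H19, with r = -0.66 (exact permutation p = 0.081, adjusted 0.45), rho = -0.40 (p = 0.33, also exact) and 0.037 once the 2 mice farthest out in H19 were dropped. The negative value rests on mouse 5, the lowest for H19 and the highest for Grb10: r was -0.098 without it and -0.73 without mouse 2. These pairs, other than Igf2 and Mest, did not pass after adjustment.

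**Figure D4:**
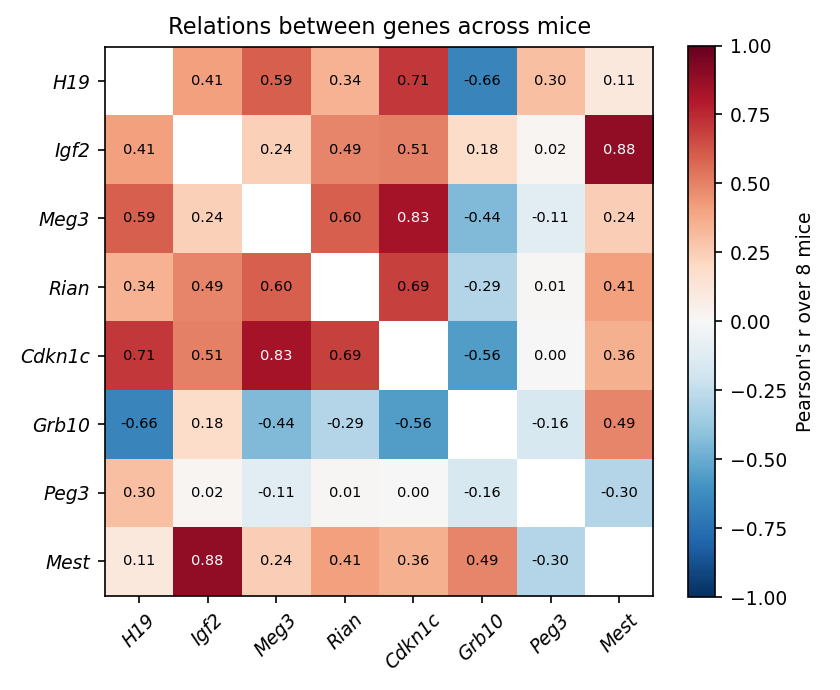
Pearson's r between the 8 genes that met the count minimum, over 8 mice (red positive, blue negative; the diagonal is left blank). Igf2 with Mest (0.88) and Meg3 with Cdkn1c (0.83) are the highest values, and H19 with Grb10 (-0.66) is the lowest.

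The regions around the starts of Igf2 and Mest are shown because this pair passed the test. Each is 300 bases from RefSeq (GRCm38.p6), 250 before and 50 after an annotated start, read in the direction of transcription, with the GC box GGGCGG, on either strand, in capitals. The motif was chosen after the sequences were read. For Igf2 it is the most downstream of 4 annotated starts (chr7:142657447-142657746, minus strand), and for Mest the middle of 3, of which it overlaps the next by all but 3 bases (chr6:30737800-30738099, plus strand). The gene counts do not show which start was in use.
Igf2 start region: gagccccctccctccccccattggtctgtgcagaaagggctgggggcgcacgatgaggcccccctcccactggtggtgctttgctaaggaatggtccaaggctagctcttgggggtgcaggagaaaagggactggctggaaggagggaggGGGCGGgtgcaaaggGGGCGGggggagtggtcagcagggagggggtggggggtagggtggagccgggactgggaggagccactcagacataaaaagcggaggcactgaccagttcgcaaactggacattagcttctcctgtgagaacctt
Mest start region: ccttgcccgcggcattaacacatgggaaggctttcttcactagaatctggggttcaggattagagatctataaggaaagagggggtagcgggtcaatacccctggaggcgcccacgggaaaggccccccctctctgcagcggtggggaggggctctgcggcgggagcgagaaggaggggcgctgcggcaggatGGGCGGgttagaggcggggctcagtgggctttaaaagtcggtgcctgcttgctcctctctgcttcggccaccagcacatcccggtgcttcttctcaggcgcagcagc
The Igf2 region held 2 matches and the Mest region 1. Of the 32851 start regions of this length in the table, 35.7% held at least 1 match. Among the 15 start regions of the 8 members found there, 6 held 1 or more: 2 of Igf2, 3 of Mest and 1 of Grb10.

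The counts of some members share reads with other annotated genes. Mir675, nested in an H19 exon on the same strand, had 712 to 1377 counts, 8.65% to 9.71% of the H19 count of the same library, and had r = 0.99 with H19 over the 8 mice, with reads in common. Gm49394, a protein-coding gene that shares 3596 exon bases with Igf2 on the same strand, had 95.6% to 98.7% of the Igf2 count in each library. Reads in shared bases on the same strand were therefore kept in the counting, and the Igf2 counts cannot be told apart from those of Gm49394. On the opposite strand, Gm27483 and Gm27786 lie wholly within H19 exons and had 0 to 5 counts, and Gm44732, which shares 625 exon bases with Cdkn1c, had 0 to 4. Copg2 overlaps the end of Mest by 912 exon bases on the opposite strand and had 364 to 506 counts, against 23 to 44 for Mest.

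The small RNA genes inside the other hosts had few counts. Within Meg3, Gm27300 had 4 to 10 counts per library (61 in all, 1.13% to 3.07% of the Meg3 count), Mir1906-1 had 1 to 5 (30 in all) and Mir770 had 1 in all, and all 3 lie in Meg3 exons on the same strand. The 13 small nucleolar RNA genes within Rian had 28 counts in all over the 8 libraries, the 15 microRNA genes within Mirg had 7, Mir483 within Igf2 had 1, and Mir335 within Mest had 0, which allows up to 3 counts over all libraries by counting error alone. The libraries were made from polyadenylated RNA, and mature microRNAs were not measured by them.

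**Figure D5:**
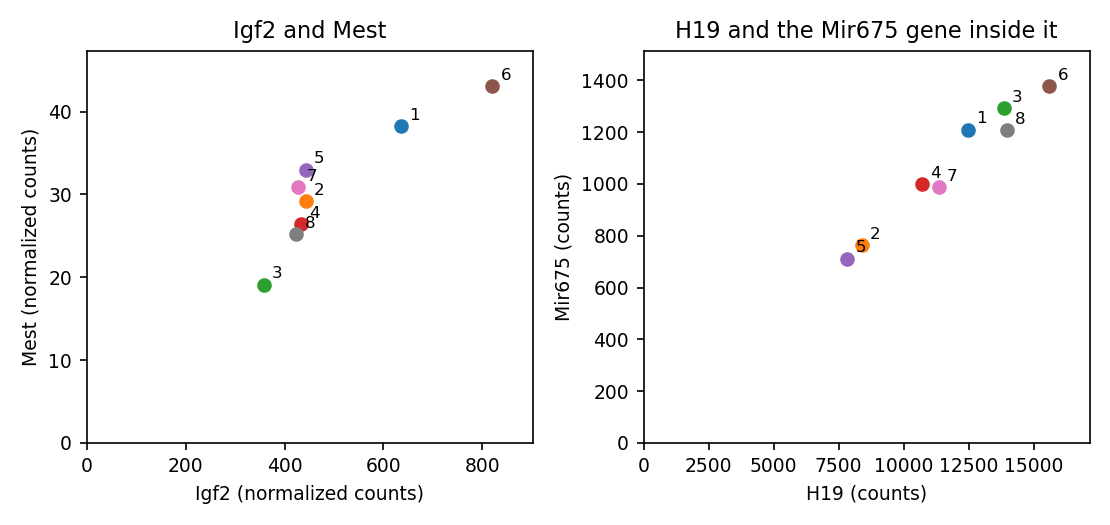
Left, normalized counts of Igf2 and Mest, and right, recovered counts of H19 and of the Mir675 gene nested in it, with 1 numbered point per mouse and axes from 0. Mice 6 and 1 are the highest for both Igf2 and Mest, and Mir675 keeps 8.65% to 9.71% of the H19 count in every mouse.

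The genes whose pattern over the 8 mice was most like a member's were taken by Pearson's r among 15134 other genes that met the count minimum. Besides Mir675, those nearest H19 were Pepd (r = 0.98), Hint2 (0.97), Mrps5 (0.97) and Flad1 (0.95). Those nearest Meg3 were Macrod1 (0.98), Napa (0.98), Scp2 (0.98), Srsf4 (0.98) and Hmgn5 (0.97). These are the highest of many values over 8 mice and are given as a description.

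Cell type markers were compared with the members as scores, the mean z-score of each of 13 lists over mice. Of 104 relations between the 8 members and the 13 scores, 0 passed the exact permutation test after Benjamini-Hochberg adjustment, and 6 had an unadjusted exact permutation p under 0.05. Of these 6, 3 were negative relations to the blood markers Hbb-bs, Hba-a1 and Alas2. Cdkn1c had r = -0.85 (exact permutation p = 0.0066, adjusted 0.34) and rho = -0.86 (exact permutation p = 0.011), and r was -0.48 once the 2 mice farthest out were dropped. Meg3 had r = -0.81 (exact permutation p = 0.011, adjusted 0.34) and rho = -0.83 (exact permutation p = 0.015), with -0.70 once they were dropped. H19 had r = -0.75 (exact permutation p = 0.036, adjusted 0.62) and rho = -0.90 (exact permutation p = 0.0046, adjusted 0.24), with -0.63 once they were dropped. All 3 blood markers met the count minimum and summed to 4032 to 15971 normalized counts, highest in score in mice 5 and 3. The other 3 were positive. Meg3 and the fast fibre score had r = 0.80 (exact permutation p = 0.015, adjusted 0.34) and rho = 0.95 (exact permutation p = 0.0011, adjusted 0.12), with 0.84 without the farthest mice. Rian and the slow fibre score had r = 0.78 (exact permutation p = 0.011, adjusted 0.34) and rho = 0.74 (exact permutation p = 0.046), but 0.31 without them. Grb10 and the proliferation score had r = 0.76 (exact permutation p = 0.016, adjusted 0.34) and rho = 0.74 (exact permutation p = 0.046), with 0.59 without them. Of the 4 proliferation markers only Mki67 met the count minimum, and Ccnb1 and Cdk1 were at 0 in some. Igf2 and Mest had r = 0.48 and r = 0.70 with the proliferation score (exact permutation p = 0.24 and p = 0.054). The part of these cell types in the relations between members was not tested.

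Other imprinted genes ranged from among the more abundant transcripts to 0. All 32 listed genes were found in the values, 19 met the count minimum and 3 (Phlda2, Ascl2 and Magel2) were at 0 in all. Before division by length, the list was led by Gnas (18185 ± 2858 normalized counts, SD, n = 8), which encodes the stimulatory G protein alpha subunit. Next were Ube3a (4971 ± 448), a ubiquitin ligase, Igf2r (3457 ± 604), the receptor that clears IGF2, and Slc38a4 (2915 ± 829), an amino acid transporter. Per kilobase of exon Gnas (1626) also led, but Slc38a4 (684), Igf2r (371) and Snurf (321) stood above Ube3a (241). Of the 25 with a mean of at least 5 counts, 20 varied beyond counting error, near the 72.3% called over all genes tested, and their median spread was 23.5%, beside 13.8% over all genes.

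Of the 6 listed partners of IGF2, 5 were tested and 5 varied beyond counting error, where 72.3% of all genes did. Igf1r, the signalling receptor, had 879 ± 188 normalized counts (SD, n = 8) and Insr 3006 ± 524. On the scale per kilobase Igf2r was at 371 and Insr at 219, above the 87.0 of Igf2, and Igf1r was at 52.3, below it. Among the RNA-binding proteins named for Igf2 mRNA, Igf2bp2 had 62.8 ± 14.9 normalized counts, Igf2bp3 17.7 ± 8.74, and Igf2bp1 0 or 1 count per library. Of the factors that keep imprints, Zfp445 (2333 ± 298), Ctcf (1242 ± 114), Trim28 (1110 ± 82.8) and Dnmt1 (215 ± 25.3) met the count minimum, whereas Uhrf1 and Zfp57 had 3 to 18 counts and Dppa3 0 to 2. Their median spread beyond counting error was 9.12% over the 6 tested, beside 13.8% over all genes, with single factors from 6.74% to 31.9%, and 4 of the 6 were called, near the 72.3% of all genes.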

How the data were processed

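Poly(A) RNA of 8 mice was sequenced on an Illumina NextSeq. The authors mapped reads with STAR to GRCm38 (FastQC and fastp are also named per the labels), counted them per gene with summarizeOverlaps and used DESeq2. The annotation release, the use of strand and the treatment of multi-mapping reads are not given in the sources used here. The deposited values are a signal: counts divided by 1 size factor per library (0.906 to 1.20). Counts had been assumed when the tests were designed, and whole reads were recovered from 100% of the values (within 0.01 of a read). The 8 libraries analysed here are of 1 group, so no count test between groups was run. Lengths are merged exons of GENCODE M21, which held 55141 of the 55487 identifiers. The 28 library pairs differed (chi-square per degree of freedom 13.6 to 98.5).

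The genes, lists and tests were chosen with earlier results of these data known. All 10 genes are named, with the 5 genes nearest H19 and Meg3 and the 4 other imprinted genes highest in mean normalized counts. Relations used exact permutation of the 40320 pairings with a pseudocount of 1. Each library is from its own mouse per the labels. The permutation p-values test the pairing of values over these mice, and the chi-square p-values test departure from Poisson counting error. Values were recomputed with TMM factors of edgeR, with library totals, with the median, with Spearman correlation, with a pseudocount of 5, with other count filters and without each mouse. Counts are reads without molecular identifiers. Software was scipy 1.17.1 under Python 3.11.15, and edgeR 4.0.16 under R 4.3.3.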

Additional observations from a re-analysis of the deposited data

Results flagged for a closer look

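Of 28 sets of 8 values examined (the members, the marker scores, Mir675 and the 4 highest other imprinted genes), 3 had a mouse whose gap to its nearest neighbour, divided by the whole range, was above Dixon's 95% critical value for 8 samples, where chance flags about 1 in 20. Rian was highest in mouse 1, with 224 normalized counts, the other mice lying between 150.6 and 184 (a gap of 0.547 of the range, and 0.539 with TMM factors). Grb10 was highest in mouse 5, with 2418 normalized counts, the other mice lying between 1344 and 1837 (a gap of 0.541 of the range, and 0.562 with TMM factors). The satellite cell score was lowest in mouse 4, at -0.764 against -0.113 to 0.457 (a gap of 0.5335 of the range), and 4 of its 5 markers had at least 10 counts in every library, Calcr being the exception.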

How the results depend on the processing

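The number of member pairs past the threshold was 1, and it was 0 with library totals, with Spearman correlation and with all 10 genes in the family. It ran from 0 to 1 when each mouse was left out, with 1 only without mouse 5 and without mouse 7. The relation of Igf2 and Mest had r = 0.870 with library totals (adjusted exact permutation p = 0.16), 0.881 as Spearman's rho (adjusted exact permutation p = 0.20) and 0.883 among all 10 genes (adjusted exact permutation p = 0.067), and 0.851 to 0.923 without a mouse. The cause was not tested. The relation of H19 and Mest changed sign without mouse 6 (r = -0.194, from 0.106), ran from -0.194 to 0.357 over the mice left out, and never passed. Of 104 alternative values for 8 other pairs, 103 kept their sign and their side of the threshold. None of the 8 pairs passed in the main setting, so keeping their side means only that they again did not pass. Their r was not stable: for H19 and Grb10 it ran from -0.776 to -0.098 over the mice left out. All 110 alternative member means moved by less than 1 SD between mice. Leaving out 1 of 8 mice or taking the median cannot move a mean that far, so for those settings this was fixed in advance. Under each scaling and filter, 7 members varied beyond counting error, and leaving out single mice gave 6 to 8. Over all genes, the share called was 72.3% in the main setting, 77.8% with library totals and 42.3% with no filter on low counts. The likeness of the members' share to that of all genes therefore does not hold without that filter. Neighbouring pairs in the same order in every mouse numbered 4 to 5. No marker relation passed under any alternative. Depth limits Mirg and Dlk1, with 14 counts at most in a library. No paired analysis was possible because only 1 group was analysed.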

Other observations

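Neighbours of the members in the same imprinted region were looked at after the members' values were seen, as 5 pairs. Zim1, a maternally expressed zinc finger gene (chromosome 7, 6671269 to 6696450), lies on the same strand as the paternally expressed Peg3 and begins 7441 bases past its annotated end. It had 127 normalized counts in the lowest mouse, 231 at the median and 541 in the highest, from 115 to 492 counts per library. Its lowest and highest mice, 7 and 4, were those of Peg3. Pearson's r was 0.95 (exact permutation p = 0.00074, adjusted 0.0037 over the 5 pairs), rho was 0.95 (exact permutation p = 0.0011), and r was 0.97 without the 2 mice farthest from the Peg3 median. Leaving out each mouse gave r from 0.92 to 0.99, with an exact permutation p of 0.0069 at most, and r was 0.95 with TMM factors and 0.96 with library totals. Reads that run on from Peg3 into Zim1 were not tested, as only gene counts were used.

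The other 4 pairs did not pass. Usp29, which lies 146 bases from Peg3 on the opposite strand, had r = 0.69 with Peg3 (exact permutation p = 0.056, adjusted 0.14, rho = 0.62 with exact permutation p = 0.11, and 0.33 without the 2 farthest mice), from 5 to 31 counts, under the minimum of 10 in some libraries. Kcnq1ot1, the long noncoding RNA of the Cdkn1c region, had r = 0.38 with Cdkn1c (exact permutation p = 0.35, adjusted 0.43) and rho = 0.24 (exact permutation p = 0.58), with 0.044 without the farthest mice and 0.16 to 0.89 without a single mouse. Dio3 had 7 to 19 counts per library, also under that minimum in some, and an estimated spread beyond counting error of 0, so its values with Meg3 cannot be read as a relation or as the lack of one. They were r = -0.42 (exact permutation p = 0.30, adjusted 0.43) and rho = -0.29 (exact permutation p = 0.50), with -0.028 without the farthest mice and -0.83 to -0.25 without a single mouse. Copg2, which overlaps Mest, had r = 0.29 with it (exact permutation p = 0.49, adjusted 0.49) and rho = 0.29 (exact permutation p = 0.50), with 0.15 without the farthest mice, 0.17 to 0.44 without a single mouse and -0.012 with library totals.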
